A study of Mus musculus with 8 samples.

Results

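Induction of fat cell development was given to 3T3-L1 cells in 2 culture formats, and the difference between the 2 responses is described here gene by gene. For each gene the quantity is the interaction of format and induction on the log2 scale: the induced minus the uninduced level in spheroids, less the same difference in flat cultures. It uses all 8 of the 8 libraries in the series, 2 in each of 4 groups, and a fit over 15255 of the 49585 genes counted. An interaction below 0 means that the response to induction was lower, algebraically, in spheroids than in flat culture. The level of a gene is given as CPM, its reads relative to the TMM-scaled size of the library. Calls required at least a 2-fold difference, which is 1 on the log2 scale, together with an adjusted p below 0.05 in edgeR's quasi-likelihood test (Benjamini-Hochberg over all genes tested).

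3T3-L1 is an established mouse fibroblast line that can become fat cells in culture. The 4 groups were flat (2D) uninduced, flat induced, spheroid (3D) uninduced and spheroid induced cultures, and all were collected on day 7. Spheroids were hanging drops of 28 µL seeded with 20000 cells. Induced cultures of both formats had 10 µM troglitazone, an agonist of the nuclear receptor PPARγ, and 1 µg/ml insulin throughout, with 250 nM dexamethasone and 10 nM triiodothyronine for the first 2 days. The labels give 1 medium for all groups, high-glucose DMEM with calf serum and methylcellulose. Flat cultures had their medium changed every day, whereas in drops a part of it was exchanged daily, so format and medium exchange cannot be told apart. All libraries come from this 1 line. The labels do not say that the 2 samples of a group were separate cultures, and the p-values therefore reflect the spread between these samples only.

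Fat cell development runs through a cascade in which glucocorticoid and insulin signals raise the early factors, which switch on PPARγ and C/EBPα. PPARγ and C/EBPα then keep each other on and activate the genes for fatty acid uptake, triacylglycerol assembly, droplet coating and lipolysis. Fat cells also secrete adipokines and several proteins of the acute-phase response, and preadipocyte, matrix and contractile genes fall as they mature.

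The libraries held 11839374 to 21169390 counts. The 2 spheroid induced libraries stood apart from each other: their biological coefficient of variation was 0.327, against 0.0469 to 0.11 in the other groups, and 2159 genes were at least 2-fold apart between them, against 380 to 561. Collagen genes made up 4.59% of replicate 1 and 1.86% of replicate 2, and the transcripts Gm26917 and Gm42418 together 0.106% and 1.13%. Results are therefore given with and without each of these 2 libraries where they bear on a value.

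The responses of 58 genes differed between the formats, which is 0.38% of the genes tested. Of these, 52 had an interaction below 0 (0.341% of the genes tested) and 6 above 0 (0.0393%). Over all tested genes the median interaction was 0.02, with 8064 genes above 0 and 7191 below. The TMM scaling centres most genes near 0, so this median cannot tell whether the table as a whole shifted. At an unadjusted p under 0.05 there were 1199 genes. One further gene, the metalloproteinase inhibitor Timp1, had an adjusted p of 0.0477 and an interaction of -0.93 ± 0.14 (log2 ± standard error, n = 2 libraries per group, as for all values below), just under the 2-fold limit. Without spheroid induced replicate 1 the counts were 169 higher and 418 lower, and without replicate 2 they were 374 higher and 317 lower, so which way the calls lean depends on these libraries. The estimates of all 58 genes kept their sign in both of those fits. Each fit takes the remaining spheroid induced library to vary like the other groups, which had less spread. Calls kept there are therefore no separate support.

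The 52 genes with a lower interaction were for the most part genes that induction raised in flat culture. Of them, 50 were called higher on induction in flat culture (background 3.17% of genes tested), 12 were called higher on induction in spheroids (0.583%) and 1 was called lower there (0.328%). Their median response was 2.81 in flat culture and 0.46 in spheroids. These counts describe the members and are no separate support, since the interaction is built from the same libraries. In 39 of the 52 the response had the same sign in both formats and was smaller in spheroids, in 12 the signs were opposite, and in 1, Saa3, the response was below 0 in both formats and larger in size in spheroids. On the additive scale the change in CPM was also lower in spheroids for 52 of the 52, so the direction did not depend on the log scale. Leaving out Saa3, the change in CPM in spheroids was a median of 11.3% of that in flat culture, with a range from -254 to 64.7%. Among the 401 genes called higher on induction in flat culture and not in spheroids, 38 (9.48%) had a called interaction. A call in 1 format and not in the other was thus in most cases not accompanied by a called difference.

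**Figure D1:**
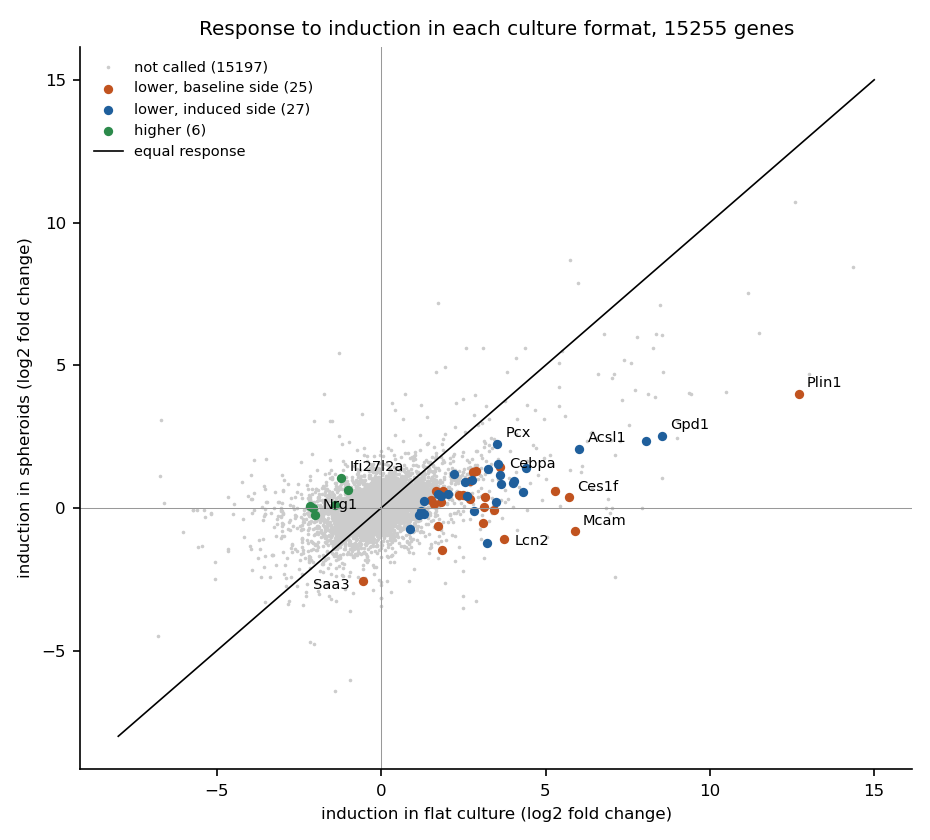
Response to induction in flat culture (x axis, log2 fold change) and in spheroids (y axis, log2 fold change) for all tested genes. The line marks equal responses. The 52 coloured points below it are the genes with a called interaction below 0 and the 6 green points above it those with one above 0. Plin1, Gpd1 and Acsl1 lie far to the right and well under the line, and Saa3 lies below 0 on both axes.

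An interaction can come from either end of the response, and the 52 genes divided almost evenly by that. In 27 the format difference was larger after induction than before it, here called induced-side genes, and in 25 it was larger before induction, here called baseline-side genes. In the 27, the median spheroid minus flat difference went from 0.54 uninduced to -1.82 induced. In the 25, it went from 1.89 uninduced to -0.17 induced. Of the 25, 24 were called higher in uninduced spheroids than in uninduced flat cultures (background 5.42%), and after induction 18 had no called format difference, 3 were called higher (6.94%) and 4 lower (5.46%). Of the 27, 23 were called lower in induced spheroids than in induced flat cultures, and 23 had no called difference before induction, while 3 were called higher there and 1, Pla2g16, a phospholipase of fat cells, lower (background 4.02%). The sides were defined from these same format differences, so the direction of the larger difference was fixed in advance. The counts by side describe the members and are no separate support. In all, induction called 689 genes in flat culture (4.52%) and 139 in spheroids (0.911%), and format called 1440 genes before induction (9.44%) and 1892 after it (12.4%). Without spheroid induced replicate 1 induction called 1141 genes in flat culture and 1175 in spheroids, and without replicate 2 it called 1141 and 495. Without any 1 of the other 6 libraries it called 223 to 546 and 24 to 50. Leaving out either spheroid induced library also takes the pair with the largest spread out of the shared estimate. These counts therefore cannot tell what the gap between the 2 formats in the number of induced calls depends on.

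**Figure D2:**
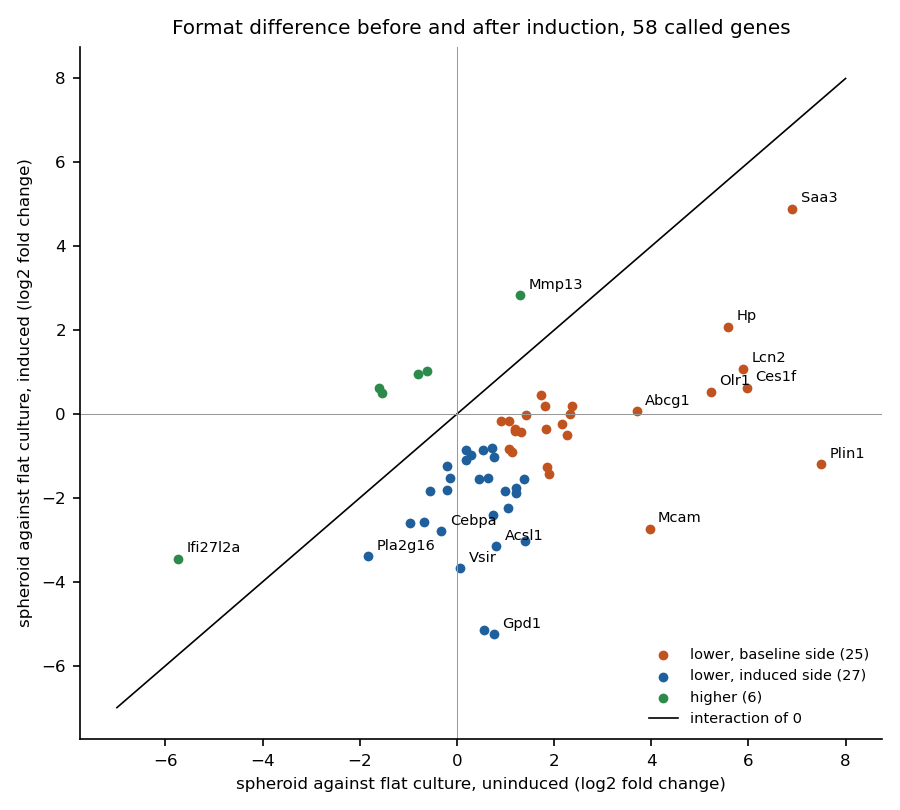
Spheroid minus flat difference (log2 fold change) in uninduced cultures (x axis) and induced cultures (y axis) for the 58 called genes. The line marks an interaction of 0. The sides were defined from the differences on these axes, which fixes the sign of the larger one. The 27 induced-side genes (blue) lie below 0 on the y axis, 23 of them without a called difference on the x axis. The 25 baseline-side genes (orange) lie right of 0 on the x axis, and on the y axis 18 have no called difference, 4 are called lower and 3 higher, with Saa3 highest at 4.90 and Hp next at 2.08.

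Of the enzymes that build triacylglycerol, Gpd1, Acsl1 and Gpat3 were induced-side genes. Gpd1 makes glycerol 3-phosphate, the backbone of triacylglycerol. Its levels were 1.19 and 0.754 CPM in the 2 flat uninduced libraries and 389 and 367 CPM in the 2 flat induced ones. In spheroids they were 2.06 and 1.38 CPM uninduced and 5.96 and 13.9 CPM induced. The flat induced libraries were far above all others, and the spheroid induced libraries were above the uninduced ones and differed from each other. The response was 8.54 ± 0.46 in flat culture and 2.53 ± 0.43 in spheroids, and the interaction was -6.01 ± 0.68 (adjusted p = 0.0208).

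Acsl1 activates long-chain fatty acids to acyl-CoA. It stood at 15.7 and 15.7 CPM in flat uninduced and 1034 and 1021 CPM in flat induced libraries. In spheroids the values were 25.3 and 29.7 CPM uninduced and 91.3 and 140.3 CPM induced. The spheroid minus flat difference was 0.81 ± 0.21 before induction (not called) and -3.15 ± 0.21 after it, and the formats did not overlap in either state. The interaction was -3.96 ± 0.29 (adjusted p = 0.00316).

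Gpat3 attaches the first fatty acid to glycerol 3-phosphate. Its levels rose in flat culture from 3.78 and 2.56 to 50.6 and 54.2 CPM and stood in spheroids at 4.79 and 6.03 CPM uninduced and 7.72 and 12 CPM induced. Its interaction was -3.15 ± 0.38 (adjusted p = 0.0255), and the response in spheroids, 0.87 ± 0.27, was not called. Dgat1, which adds the last fatty acid, belonged to the baseline side. It rose from 28.6 and 28.2 to 150.4 and 142 CPM in flat culture, and in spheroids it stood at 58 and 61.9 CPM uninduced and 74.2 and 91.0 CPM induced, so the 2 spheroid groups lay between the 2 flat groups. Its interaction was -1.90 ± 0.18 (adjusted p = 0.0109).

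The lipase gene Lipe, whose product cleaves diacylglycerol in lipolysis, had 13.1 and 14.4 CPM in flat uninduced and 226 and 226 CPM in flat induced libraries. In spheroids it had 34.5 and 28.9 CPM uninduced and 45.1 and 76.5 CPM induced. Spheroids were thus above flat cultures before induction and below them after it. The interaction was -3.10 ± 0.33 (adjusted p = 0.0174). Abhd15, an adipocyte protein tied to the control of lipolysis by insulin, rose in both formats, from 3.83 and 3.24 to 43.1 and 40.4 CPM in flat culture and from 5.01 and 4.80 to 14.3 and 14.3 CPM in spheroids, with an interaction of -2.01 ± 0.22 (adjusted p = 0.0188).

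Of the 2 master regulators of the fat cell program, Cebpa had a called interaction. Its levels were 15.1 and 16.7 CPM in flat uninduced, 203 and 189 CPM in flat induced, 13.2 and 12.1 CPM in spheroid uninduced and 30.4 and 26.5 CPM in spheroid induced libraries. Both formats responded and the flat induced libraries were highest. The response was 3.63 ± 0.13 in flat culture and 1.16 ± 0.13 in spheroids, with an interaction of -2.46 ± 0.18 (adjusted p = 0.00316). Pparg had 32.7 and 33.7 CPM, 90.1 and 84.6 CPM, 28.9 and 34.3 CPM and 40.6 and 38.9 CPM in the same order of groups. Its interaction of -1.07 ± 0.17 was not called (adjusted p = 0.0656). Nrip1, a corepressor of nuclear receptors, stood at 18.7 and 18.2 and then 58.6 and 58.6 CPM in flat culture, and at 34.1 and 34.6 and then 53.1 and 51.2 CPM in spheroids, with an interaction of -1.07 ± 0.15 (adjusted p = 0.0374).

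Other metabolic genes of the induced side had smaller interactions with little spread. Scd1, which puts the double bond into stearic and palmitic acid, had 71.6 and 75.6 CPM in flat uninduced, 462 and 432 CPM in flat induced, 117 and 112 CPM in spheroid uninduced and 161 and 149 CPM in spheroid induced libraries, and an interaction of -2.17 ± 0.14 (adjusted p = 0.00316). Pcx, which carboxylates pyruvate to oxaloacetate, rose in both formats, to 730.0 and 714 CPM in flat culture and 345 and 389.5 CPM in spheroids from 61.8 and 63.8 and 69.3 and 84.8 CPM, with an interaction of -1.27 ± 0.18 (adjusted p = 0.0379). Adipor2, a receptor for adiponectin, rose from 111 and 108 to 509 and 516 CPM in flat culture and from 122 and 127 to 279 and 290.1 CPM in spheroids, with an interaction of -1.04 ± 0.13. In these 3 genes the 2 replicates of each group were close to each other, the spheroid induced ones included. Hk2, the insulin-regulated hexokinase, had a response of 1.31 ± 0.13 in flat culture and -0.22 ± 0.13 in spheroids, and Egln3, a prolyl hydroxylase of the hypoxia pathway, had 2.55 ± 0.17 and 0.93 ± 0.17. Their interactions were -1.53 and -1.63.

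The remaining induced-side genes were of mixed function. Vsir encodes an immune checkpoint protein of the cell surface. It had 1.05 and 1.06 CPM in flat uninduced, 21.3 and 20.9 CPM in flat induced, 1.11 and 1.09 CPM in spheroid uninduced and 1.08 and 2.17 CPM in spheroid induced libraries, and the flat induced libraries were highest. Its interaction was -3.74 ± 0.48 (adjusted p = 0.0291). Rasl12, a small GTPase of the Ras family, had 1.44 and 0.829 CPM, 15.2 and 11.2 CPM, 2.65 and 2.18 CPM and 3.11 and 2.46 CPM in the same order, with an interaction of -3.29 ± 0.47 (adjusted p = 0.0374). C9orf72 had responses of 1.20 ± 0.12 in flat culture and -0.10 ± 0.12 in spheroids. Scp2, the sterol carrier protein, had responses of 1.29 ± 0.10 and 0.25 ± 0.10, and Apmap, an adipocyte membrane protein, 1.74 ± 0.11 and 0.48 ± 0.11.

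Several of these genes share exon sequence with a gene on the other strand, and the strand setting of the counting is not given in the sources used here. Gm16537 is antisense to Gpd1, with 384 exon bases in common, and had an interaction of -5.71 ± 0.71. 4732471J01Rik is antisense to Lipe, with 918 bases in common, and had -2.81 ± 0.30. Gm48529 is antisense to Tagln, with 1241 bases in common, and had 2.23 ± 0.32. In the same way Abhd15 shares 1305 bases with Gm10392, Taok1 and Trp53i13, Gpat3 1052 with 4930458D05Rik, Acsl1 1039 with Gm45244, Bcar3 698 with Gm42836 and Nrg1 482 with Gm26578, and the other called genes with such an overlap share 17 to 247 bases. Tagln also overlaps Pcsk7, which brings its shared bases to 1349. Reads of such genes may not have been told apart. Both members of the first 3 pairs are counted as genes of their own among the 58, with 2 of the pairs among the 27 induced-side genes and 1 among the 6 with an interaction above 0, and the members of a pair are not independent results.

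On GRCm38/mm10 in GENCODE vM21, Gpd1 (ENSMUSG00000023019) spans 99717515 to 99725005 on the plus strand of chromosome 15, and Acsl1 (ENSMUSG00000018796) spans 46471037 to 46536051 on the plus strand of chromosome 8. Cebpa (ENSMUSG00000034957) spans 35119293 to 35121928 on the plus strand and Lipe (ENSMUSG00000003123) 25379527 to 25398710 on the minus strand of chromosome 7. Plin1 (ENSMUSG00000030546) spans 79720218 to 79732903 and Saa3 (ENSMUSG00000040026) 46711998 to 46715700, both on the minus strand of chromosome 7. Lcn2 (ENSMUSG00000026822) spans 32384633 to 32388252 on the minus strand of chromosome 2.

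**Figure D3:**
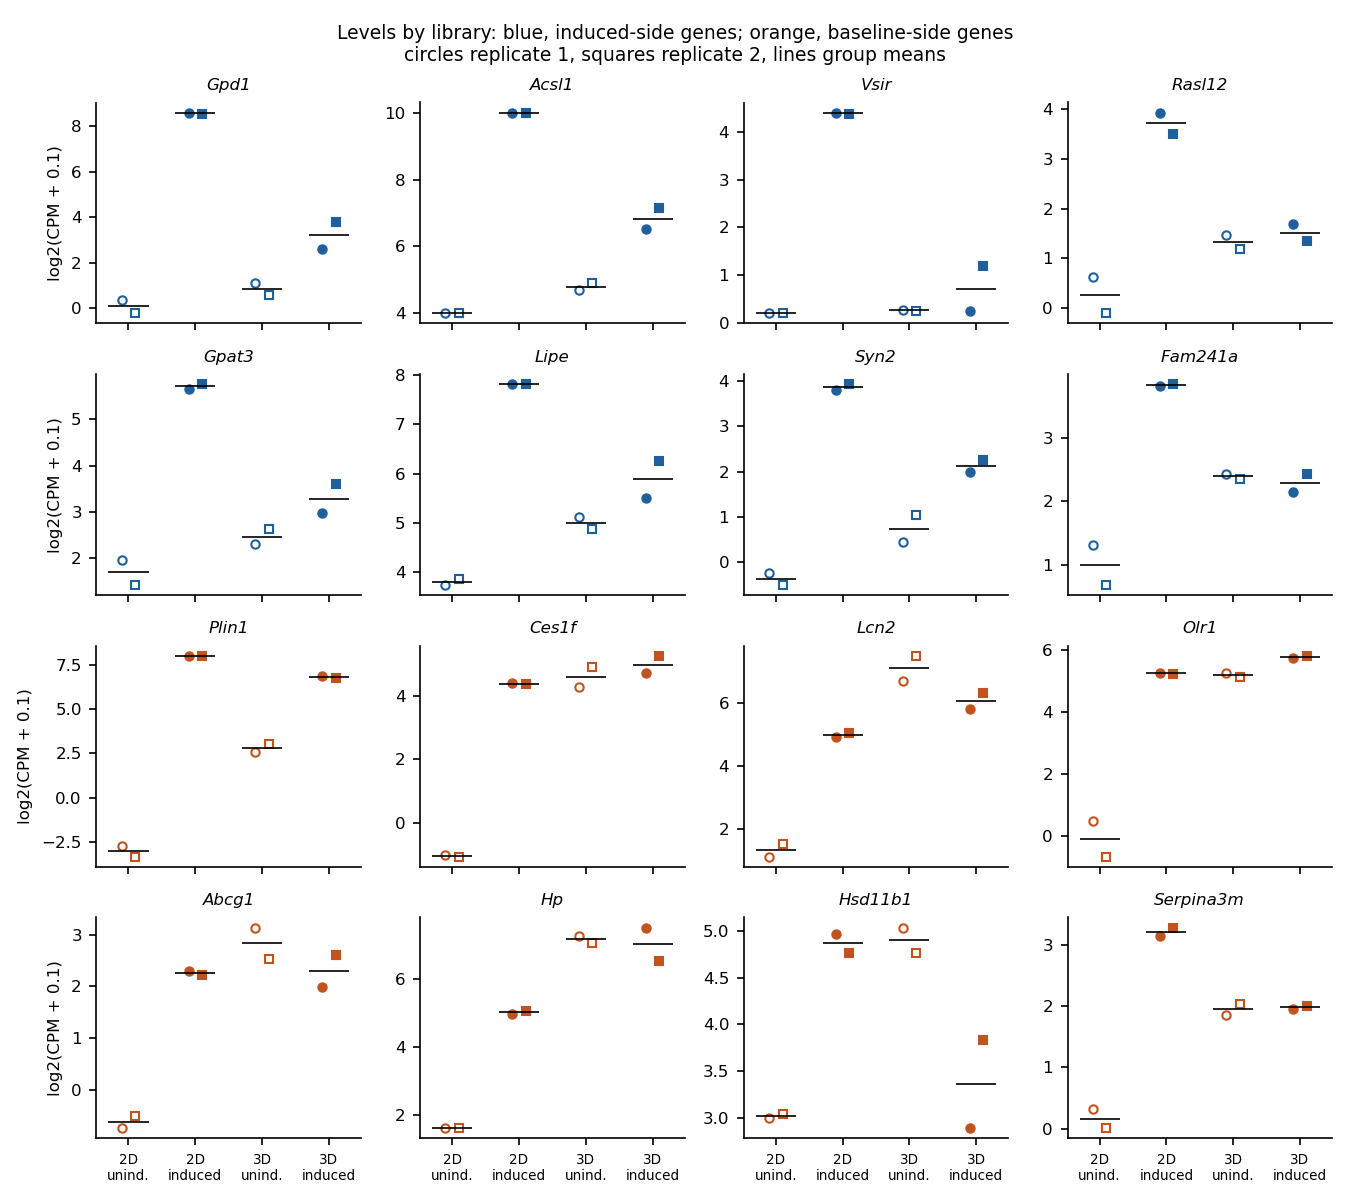
Level of 16 called genes in each library, as log2(CPM + 0.1), with its own y axis in each panel. Circles are replicate 1, squares replicate 2 and lines group means. In the 8 induced-side genes (blue) the flat induced libraries stand highest, while in the 8 baseline-side genes (orange) the spheroid uninduced libraries already stand far above the flat uninduced ones.

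The largest interaction of all called genes was that of Plin1, which coats the fat droplet and gates access of lipases to it. Plin1 had 0.0498 and 0 CPM in the flat uninduced libraries, a single read in all, and 254 and 255 CPM in the flat induced ones. In spheroids it had 5.82 and 8.07 CPM before induction and 116 and 107 CPM after it. The groups did not overlap, and spheroids were above flat cultures before induction and below them after it. The ratio of induced to uninduced counts, scaled to library size, was 8505 in flat culture (95% counting interval 1526 to 336000) and 16.0 in spheroids (13.8 to 18.6). The fitted interaction was -8.69 ± 0.46 (adjusted p = 0.00139), a size that depends on how the single read is weighed, and it was -8.75 and -8.63 without spheroid induced replicates 1 and 2. Its standard error is far narrower than the counting interval of the flat ratio and does not tell how well this size is known. Plin1 was the only gene called in each of the 8 fits that left out 1 library.

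Genes of lipid handling outside the droplet were also among those already high in uninduced spheroids. Olr1, a scavenger receptor for oxidised lipoproteins, had 1.29 and 0.528 CPM in flat uninduced, 38.2 and 37.7 CPM in flat induced, 38.7 and 34.6 CPM in spheroid uninduced and 53.5 and 56.2 CPM in spheroid induced libraries. The uninduced spheroids were level with the induced flat cultures. The interaction was -4.70 ± 0.34 (adjusted p = 0.00316). Abcg1, a cholesterol exporter, had 0.498 and 0.603 CPM, 4.82 and 4.55 CPM, 8.70 and 5.67 CPM and 3.86 and 5.97 CPM in the same order, with an interaction of -3.63 ± 0.50 (adjusted p = 0.0329). Ces1f, a carboxylesterase from a cluster of near-identical genes among which reads may be split, had 0.398 and 0.377 CPM, 21.2 and 20.8 CPM, 19.5 and 30.5 CPM and 26.3 and 38.5 CPM and an interaction of -5.35 ± 0.46 (adjusted p = 0.00798). Angptl4, a secreted inhibitor of lipoprotein lipase, had 107 and 111 CPM, 409 and 389.6 CPM, 327 and 399.7 CPM and 558 and 545 CPM and an interaction of -1.27 ± 0.17 (adjusted p = 0.0328).

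Among the baseline-side genes, Lcn2, Hp, Saa3, Serpina3n, Serpina3m and Agt encode secreted proteins of the acute-phase response, a set put together after the values were seen. The inflammatory response list, which holds Lcn2 and Saa3, had a median interaction of -0.13 with 11 of 17 genes below 0, 6 above and these 2 called, and its median was -0.34 without spheroid induced replicate 1 and also without replicate 2. Lcn2, a lipocalin that binds bacterial iron carriers, had 2.09 and 2.79 CPM in flat uninduced and 30.6 and 33.5 CPM in flat induced libraries. In spheroids it had 104 and 182 CPM uninduced and 56.0 and 79.9 CPM induced. It was called higher on induction in flat culture, at 3.74 ± 0.35, while the change in spheroids, -1.08 ± 0.27, was not called, and the interaction was -4.81 ± 0.44 (adjusted p = 0.0109). Hp, haptoglobin, which binds free haemoglobin, had 2.99 and 2.94 CPM, 31.4 and 33.0 CPM, 152 and 133 CPM and 181 and 91.5 CPM in the same order, and an interaction of -3.50 ± 0.43 (adjusted p = 0.0255). All 4 spheroid libraries were above all 4 flat ones for both genes.

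Saa3, a serum amyloid A protein, differed from the other 5. It had 10.5 and 10.6 CPM in flat uninduced and 6.52 and 7.84 CPM in flat induced libraries, and 1212 and 1309 CPM in uninduced and 232 and 199 CPM in induced spheroids. It was the only one of the 52 genes called lower on induction in spheroids, at -2.55 ± 0.13, and its interaction was -2.01 ± 0.20 (adjusted p = 0.0131). The protease inhibitors Serpina3n and Serpina3m, members of a cluster of near-identical genes among which reads may be split, had interactions of -2.34 ± 0.31 and -3.11 ± 0.34. Agt, angiotensinogen, rose from 108 and 113 to 712 and 729.7 CPM in flat culture and stood at 244 and 309 CPM uninduced and 522 and 552 CPM induced in spheroids, with an interaction of -1.75 ± 0.19 (adjusted p = 0.0174).

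Promoter sequences are shown for 3 baseline-side genes that hold the letters bound by C/EBP factors, whose family includes Cebpa, Cebpb and Cebpd. Among 6 motifs searched on both strands in the 250 bases before the RefSeq start (GRCm38.p6), these letters, TTGCNNAA, occurred in 5 of 17 baseline-side genes with a promoter entry (Chst1, Gda, Lcn2, Plin1 and Saa3), in 1 of 24 induced-side genes (Syn2), in 1 of 2 genes with an interaction above 0 (Eda2r) and in 10.8% of all 27025 genes. The stretches below lie outside every annotated exon, run 5′ to 3′ on the gene's own minus strand and have the motif in capitals. They are at chr7:79732904-79733026 for Plin1, chr7:46715701-46715926 for Saa3 and chr19:21472673-21472911 for Gda.
Plin1: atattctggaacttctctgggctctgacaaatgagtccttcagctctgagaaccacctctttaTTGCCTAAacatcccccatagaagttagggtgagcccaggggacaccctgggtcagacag
Saa3: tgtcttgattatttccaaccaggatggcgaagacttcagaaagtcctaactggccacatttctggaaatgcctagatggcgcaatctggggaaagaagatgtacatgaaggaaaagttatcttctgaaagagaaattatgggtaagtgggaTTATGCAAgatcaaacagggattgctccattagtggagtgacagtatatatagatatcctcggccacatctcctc
Gda: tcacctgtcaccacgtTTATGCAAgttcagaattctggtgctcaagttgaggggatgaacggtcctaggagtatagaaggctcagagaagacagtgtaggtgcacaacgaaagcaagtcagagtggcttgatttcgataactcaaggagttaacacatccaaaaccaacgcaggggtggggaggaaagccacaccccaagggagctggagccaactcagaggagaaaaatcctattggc
The match begins 187 bases before the start in Plin1, 99 in Saa3 and 234 in Gda, and Plin1 holds a further match 58 bases before the start, inside an annotated exon. The direct repeat element of PPARγ was matched in 0 of the 41 lower genes with an entry and in 0.662% of all genes. The interferon element was matched in 1 of 41 (Saa3) and in 1 of 2 higher genes (Mmp13) against 3.46%, the glucocorticoid letters ACANNNTGT in 4 against 6.76%, CACGTG in 3 against 6.86% and the sterol letters TCACNCCAC in 2 against 1.22%. These are matches of letters, not measured binding. In uninduced cultures Cebpa had 13.2 and 12.1 CPM in spheroids and 15.1 and 16.7 CPM in flat libraries. For Cebpb these levels were 255 and 320 CPM in spheroids and 83.0 and 154 CPM in flat libraries. For Cebpd they were 36.9 and 55.3 CPM in spheroids and 29.2 and 32.7 CPM in flat libraries. The part of these factors in the results was not tested.

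The other baseline-side genes were of mixed function. Hsd11b1, which regenerates active glucocorticoid, had 7.91 and 8.14 CPM in flat uninduced, 31.1 and 27.1 CPM in flat induced, 32.7 and 27.0 CPM in spheroid uninduced and 7.31 and 14.2 CPM in spheroid induced libraries. Uninduced spheroids thus overlapped induced flat cultures, and the interaction was -3.33 ± 0.40 (adjusted p = 0.0255). Kcnk3, a background potassium channel, had 10.3 and 11.4 CPM, 69.5 and 62.1 CPM, 56.2 and 55.7 CPM and 78.2 and 71.5 CPM in that order, and an interaction of -2.19 ± 0.17 (adjusted p = 0.00469). Gda, which deaminates guanine, had 45.7 and 47.8 CPM, 133 and 148 CPM, 121 and 129 CPM and 157 and 119 CPM, and an interaction of -1.45 ± 0.21 (adjusted p = 0.0379). Sh2b2, an adaptor of the insulin receptor, had responses of 2.70 ± 0.23 in flat culture and 0.31 ± 0.21 in spheroids. Peg10, an imprinted gene derived from a retrotransposon, rose in both formats, by 3.61 ± 0.21 and 1.43 ± 0.19. Mcam, a cell adhesion molecule, rested on few reads: the induced to uninduced ratio was 62.4 (95% counting interval 20.9 to 306) in flat culture, from 3 uninduced reads, and 0.565 (0.334 to 0.940) in spheroids.

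In 4 called genes the responses had opposite signs and were at least 2-fold in both formats. They were Lcn2, Hsd11b1, Ifi27l2a and the antisense transcript Chn1os3. The response of Hsd11b1 was 1.86 ± 0.29 in flat culture and -1.47 ± 0.28 in spheroids. None of the 4 was called in spheroids on its own. Hsd11b1 levels in the 2 spheroid induced libraries were almost 2-fold apart, and its interaction was -2.93 without replicate 1 and -3.88 without replicate 2.

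The 6 genes with an interaction above 0 were called lower on induction in flat culture in 6 of 6 (background 1.34%), and called in spheroids in 0 of 6. As for the lower genes, these counts are no separate support, since the interaction is built from the same libraries. Ifi27l2a, an interferon-inducible gene, had 60.4 and 62.0 CPM in flat uninduced and 28.4 and 23.8 CPM in flat induced libraries. In spheroids it had 1.11 and 1.16 CPM uninduced and 2.37 and 2.40 CPM induced, so spheroids were far below flat cultures with and without induction. The interaction was 2.30 ± 0.25 (adjusted p = 0.0174). Tagln, transgelin, an actin-binding protein of contractile cells, had 30.0 and 28.7 CPM, 7.77 and 6.16 CPM, 8.18 and 11.9 CPM and 10.5 and 9.30 CPM in the same order, and an interaction of 2.06 ± 0.31 (adjusted p = 0.0483). Uninduced spheroids were thus already near the level of induced flat cultures.

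Nrg1, a ligand of ErbB receptors, had 37.0 and 35.6 CPM in flat uninduced, 8.04 and 9.73 CPM in flat induced, 21.1 and 20.4 CPM in spheroid uninduced and 17.9 and 16.9 CPM in spheroid induced libraries, and an interaction of 1.77 ± 0.20 (adjusted p = 0.022). Mmp13, a collagenase, had 32.4 and 33.2 CPM, 12.5 and 12 CPM, 91.2 and 71.0 CPM and 85.1 and 90.5 CPM in the same order, and an interaction of 1.53 ± 0.20 (adjusted p = 0.0299). Eda2r, a receptor for an ectodysplasin and a target of p53, had 47.9 and 38.8 CPM, 21.5 and 21.5 CPM, 26.8 and 29.7 CPM and 41.6 and 45.6 CPM, and an interaction of 1.64 ± 0.20 (adjusted p = 0.0255). For Mmp13 all 4 spheroid libraries were above all 4 flat ones, whereas Nrg1 in spheroids lay between the 2 flat groups. The 2 spheroid induced libraries were close to each other in these 3 genes.

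**Figure D4:**
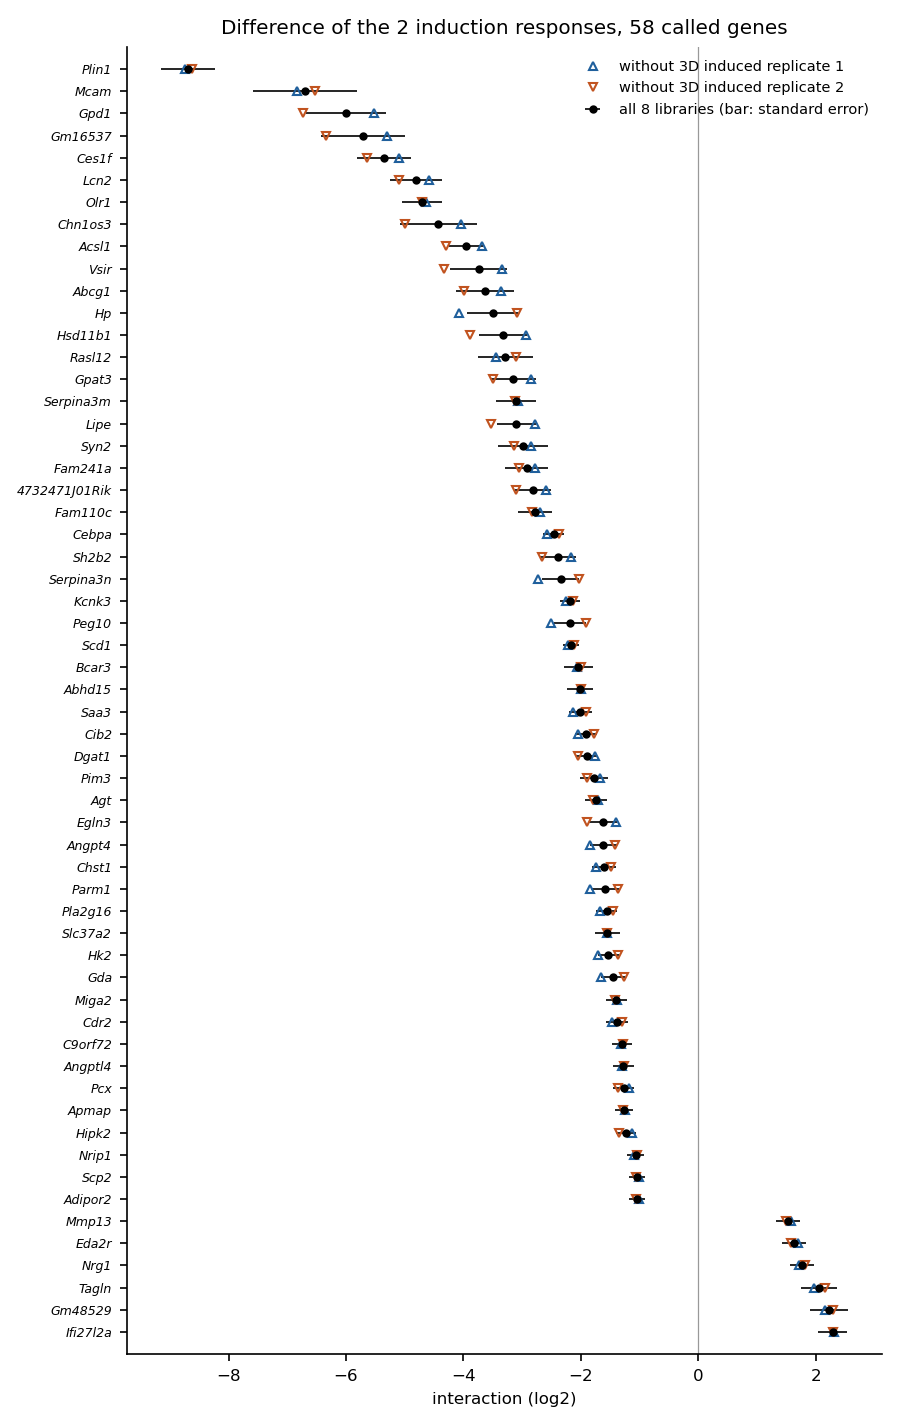
Interaction (x axis, log2) of the 58 called genes, in order of size, with bars of 1 standard error. Triangles give the estimate without spheroid induced replicate 1 or 2. The 52 lower genes lie left of 0 and the 6 higher genes right of it in all 3 fits, and the triangles of Gpd1 lie further apart, at -5.52 and -6.74, than those of Scd1, at -2.22 and -2.12.

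Several genes that define fat cells had no called interaction. Adipoq, the adipocyte hormone adiponectin, had 0 and 0.0754 CPM in flat uninduced and 242 and 229.6 CPM in flat induced libraries. In spheroids it had no read uninduced and 7.11 and 21.1 CPM induced. The induced to uninduced ratio was 7838 in flat culture (95% counting interval 1406 to 309700) and at least 133-fold in spheroids, against a floor of 3 reads over the group, so the 2 responses could not be set against each other at this depth. Cidec, a protein of droplet fusion, had 808 and 788 CPM in flat induced and 27.1 and 105 CPM in spheroid induced libraries, with 1 and 5 uninduced reads in the 2 formats, and its adjusted p was 0.744. Fabp4, the fatty acid carrier, rose from 24.7 and 20.6 to 4041 and 3613 CPM in flat culture and from 38.0 and 33.2 to 842 and 1743 CPM in spheroids, with an interaction of -2.22 ± 0.44 (adjusted p = 0.122). Cd36, a fatty acid transporter, had 0.448 and 0.0754 CPM in flat uninduced and 1.25 and 5.02 CPM in spheroid uninduced libraries, from 9, 1, 17 and 69 reads. After induction it had 693 and 693 CPM in flat and 518 and 638 CPM in spheroid libraries, so the formats lay closer together than before it, and the interaction was -3.63 ± 0.88 (adjusted p = 0.244). Slc2a4, the insulin-regulated glucose transporter, had 0 uninduced reads in flat culture and an adjusted p of 0.183.

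Markers of the starting cells had no called interaction, and their levels differed between the 2 spheroid induced libraries. Dlk1, a preadipocyte factor, had 4413 and 4399.7 CPM in flat uninduced, 1662 and 1637 CPM in flat induced, 754 and 734 CPM in spheroid uninduced and 663 and 265 CPM in spheroid induced libraries, and an interaction of 0.74 ± 0.49 (adjusted p = 0.799). Fn1, fibronectin, had an interaction of 0.17 ± 0.68 (adjusted p = 0.985), which was -1.05 without replicate 1 and 0.82 without replicate 2. Col1a1, a chain of the main fibrillar collagen, had 4580.3 and 1184 CPM in the 2 spheroid induced libraries and an interaction of 0.50 ± 0.72 (adjusted p = 0.942). Acta2, smooth muscle actin, had 47.0 and 13.5 CPM there and an interaction of 1.61 ± 0.64 (adjusted p = 0.6). In bulk cultures, fewer cells of a type and less RNA per cell cannot be told apart.

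Gene lists were set beside the median of all tested genes, 0.02, and chosen with earlier results known. In all, 18 of 504 tested list genes, in 13 of 36 lists, had a called interaction, against a background of 0.38% of all tested genes, or 0.341% for lower ones. Among lipid storage and droplet genes 19 of 21 had an interaction below 0 and 5 were called lower (Plin1, Gpd1, Acsl1, Gpat3 and Dgat1), with a median of -1.64. Without spheroid induced replicates 1 and 2 there were 11 and 12 lower calls, and DESeq2 called 11 and limma-voom with group weights 10. All 9 tested lipolysis genes were below 0 and 1, Lipe, was called, with a median of -3.10. Here the lower calls were 2 and 6 without these replicates, 3 by DESeq2 and 2 by limma-voom with group weights. The adipogenic transcription factors had a median of -0.40 with 12 of 15 below 0 and 1 called (Cebpa), the adipokines -1.07 with 7 of 8 below 0 and 1 called (Angptl4), and the hypoxia genes -0.66 with 12 of 17 below 0 and 1 called (Egln3). The tricarboxylic acid cycle genes had a median of -0.30 with 16 of 17 below 0, of which Pcx was called. Without replicates 1 and 2, the lower calls were 2 and 3 among the transcription factors, 2 and 2 among the adipokines, 2 and 4 among the hypoxia genes and 2 and 2 in the tricarboxylic acid cycle. The median of the hypoxia genes was -0.42 and that of the tricarboxylic acid cycle genes -0.19 without replicate 1. Some members passed the count filter only through the flat induced libraries, so their sign was close to fixed in advance. They were Hcar1 and Hcar2 (lipolysis), Pck1 (lipid storage), Cfd (adipokines) and Klf15 (transcription factors). Gpihbp1 (lipid storage) passed only through the flat uninduced ones. The sign counts and medians of these lists include them and are no separate support.

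Respiratory and glycolytic genes were mostly below 0 with small differences, whose size depended on the spheroid induced libraries. Of 25 oxidative phosphorylation genes 23 were below 0, with a median of -0.27, and edgeR called 0 (2 at an unadjusted p under 0.05, 0 by DESeq2 and 1 by limma-voom with group weights). The median was -0.0453 without spheroid induced replicate 1 and -0.53 without replicate 2, and the summed level was 4001 CPM in replicate 1 and 6170.0 CPM in replicate 2. Of 15 glycolysis genes 14 were below 0, with a median of -0.38, and edgeR called 0 (5 at an unadjusted p under 0.05, 0 by DESeq2 and 0 by limma-voom with group weights), and the median was -0.19 and -0.59 without replicates 1 and 2. Transcripts encoded in the mitochondrion were above 0 in 11 of 11, with a median of 0.43, and edgeR called 0 (4 at an unadjusted p under 0.05, 0 by DESeq2 and 0 by limma-voom with group weights), and the median was 0.49 and 0.19 without replicates 1 and 2. Flat libraries held 0.303 to 0.343% of their counts in these transcripts and spheroid libraries 1.57 to 2.26%, and the part of this difference in the result was not tested.

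**Figure D5:**
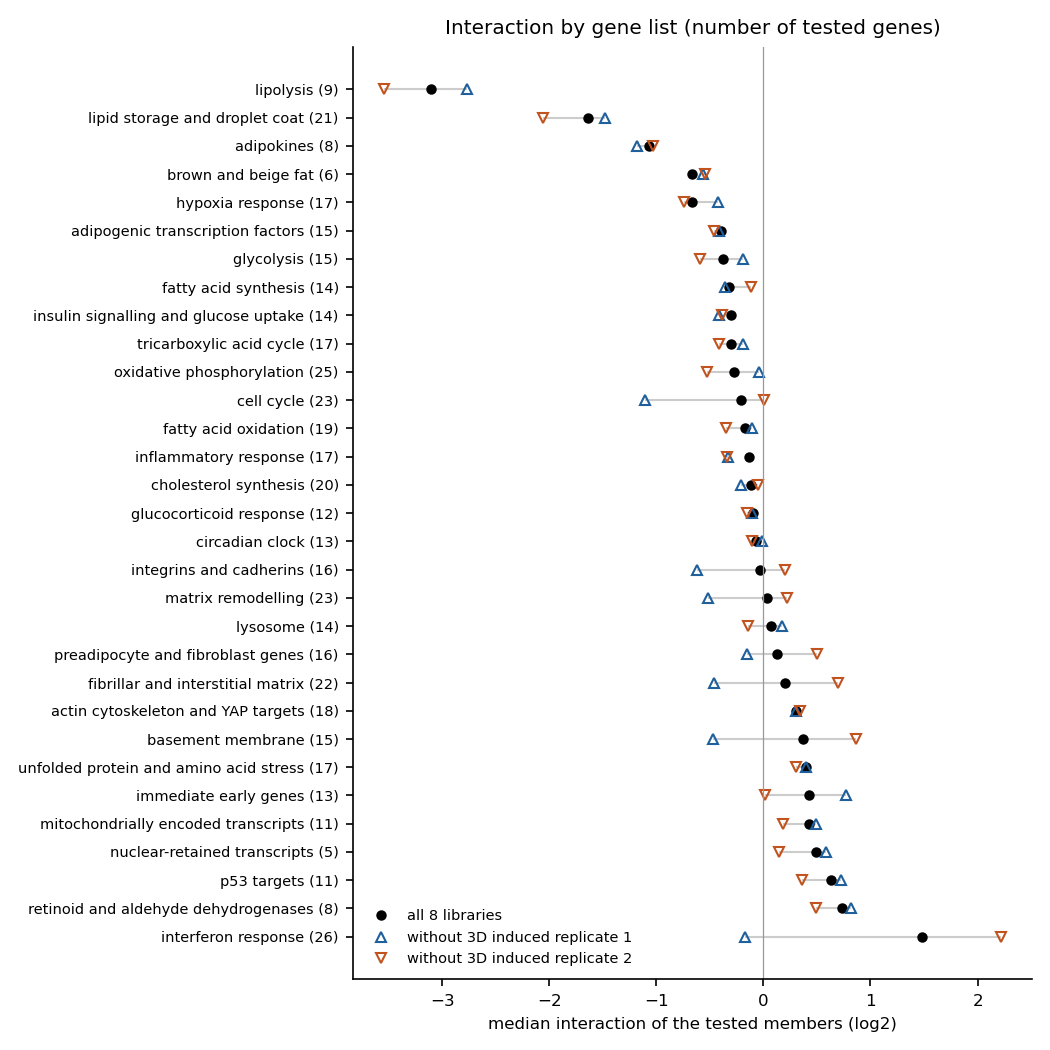
Median interaction (x axis, log2) of the tested genes of each list, with the number tested in brackets. Circles use all 8 libraries and triangles leave out spheroid induced replicate 1 or 2. Lipolysis, at -3.10, and lipid storage, at -1.64, lie lowest with both triangles on the same side, while the interferon list goes from -0.17 to 2.22. The lipolysis and lipid storage lists hold members that passed the count filter only through the flat induced libraries.

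The interferon response list had the highest median among pathway lists, 1.48, with 25 of 26 genes above 0, and it was not stable. edgeR called 0 of the 26 (3 at an unadjusted p under 0.05, 1 by DESeq2 and 0 by limma-voom with group weights). Without spheroid induced replicate 1 the median was -0.17, with 0 called higher and 2 lower, and without replicate 2 it was 2.22, with 22 called higher. The summed level of the list was 1131 CPM in replicate 1 and 321.9 CPM in replicate 2. Irf7, a transcription factor of the interferon response, had 14.4 and 4.74 CPM in these 2 libraries, 9.66 and 10.5 CPM in uninduced spheroids, 29.9 and 29.7 CPM in flat uninduced and 11.3 and 8.96 CPM in flat induced libraries. Fibrillar matrix genes had a median of 0.20, with -0.46 and 0.69 without replicates 1 and 2, and basement membrane genes 0.37, with -0.47 and 0.87. Cell cycle genes had -0.21, with -1.11 and 0.00. The direction of these 4 lists therefore cannot be given apart from the 2 libraries.

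Markers of macrophages, endothelium and muscle were in part without reads and in part read at low levels. Of 14 macrophage markers, Ptprc, Adgre1, C1qa, C1qb, C1qc and Tyrobp had no read in any library, 5 (Cd68, Csf1r, Lyz2, Cd14 and Mrc1) had enough reads to be tested, and the summed level of the list was 18.7 to 28.7 CPM in flat and 29.0 to 66.4 CPM in spheroid libraries. Of 11 endothelial markers Tie1 and Cldn5 were at 0 and 5 were tested (Pecam1, Flt1, Tek, Vwf and Egfl7), and of 9 muscle markers Myod1, Myog and Actc1 were at 0 and 4 were tested (Myh11, Des, Smtn and Lmod1). The 2 lists summed to 6.97 to 13.3 CPM and 51.0 to 60.1 CPM in flat and 19.2 to 28.2 CPM and 29.9 to 49.8 CPM in spheroid libraries. None of the tested markers of these 3 types had a called interaction by edgeR (2 higher and 1 lower at an unadjusted p under 0.05, 0 by DESeq2 and 0 by limma-voom with group weights). Cartilage and bone markers, none of them at 0, summed to 415.5 to 515.9 CPM in flat, 1253 to 2031 CPM in spheroid uninduced and 725.9 to 1004 CPM in spheroid induced libraries. The 9 tested ones had a median of -0.00384 with 0 called by edgeR (1 higher and 1 lower at an unadjusted p under 0.05, 0 by DESeq2 and 0 by limma-voom with group weights). Of 10 epithelial markers 1 had enough reads to be tested. Its interaction was 3.77, at an unadjusted p under 0.05 in edgeR, and it was not called by edgeR, DESeq2 or limma-voom with group weights. The epithelial list summed to only 3.48 and 3.92 CPM in flat uninduced libraries and 0.56 to 1.09 CPM in the others. The part of these levels in the results was not tested. The fat cell markers Adipoq, Plin1, Cidec, Fabp4 and Lipe were detected in all 4 induced libraries, and the preadipocyte marker Dlk1 in all 8. Fabp4 and Lipe were also detected in every uninduced library, and Plin1 in both uninduced spheroid libraries, at 79 and 111 reads.

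The estimates were steadier than the calls. With each library left out in turn, no estimate of the 58 genes changed sign, and in 49 the largest shift was under 0.5 on the log2 scale, with Mcam (3.44) and Plin1 (2.11) the furthest. The test that chose the 58 favours genes whose replicates agree, so this steadiness follows in part from that choice. The interactions of Plin1, Mcam and Olr1 were -10.80, -10.14 and -5.54 without flat uninduced replicate 1, and those of Plin1 and Mcam were -8.08 and -5.98 without replicate 2. Those of Gpd1, Gm16537 and Vsir were -6.74, -6.35 and -4.34 without spheroid induced replicate 2. Without either spheroid induced library all 58 genes were still called, but without any 1 of the other 6 libraries only 1 to 8 were. Leaving out a spheroid induced library takes away the pair with the largest spread, so the calls kept there are no separate support. DESeq2 called all 58, and limma-voom with group weights called 55.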

How the data were processed

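RNA from 8 libraries was read from 1 table of raw read counts per Ensembl gene, deposited by the authors without normalization, as its whole numbers show. The submitters' processing notes name HISAT2 2.1.0, featureCounts 1.6.3, Trimmomatic 0.38 and FastQC 0.11.7, and build mm10. The settings of these tools, how strand was treated in counting and which annotation was counted are not stated there, and per the labels' protocols the library kit was directional. Columns were matched to samples by the names in the sample descriptions, and samples to groups and replicate numbers by their titles.

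Genes were kept by filterByExpr (minimum count 10), library sizes scaled by TMM, and 1 mean per group fitted with edgeR 4.0.16 in R 4.3.3 (robust quasi-likelihood, 4 residual degrees of freedom). The interaction, the 2 inductions and the 2 format contrasts were each tested two-sided, with p-values adjusted by Benjamini-Hochberg over all 15255 genes. Standard errors are the log2 change divided by the square root of F. They rest on 1 estimate of spread per gene shared by all groups, although replicates differed most in the spheroid induced group. They are thus not the spread of any single group. For genes with few uninduced reads, such as Plin1, they do not tell how well the size is known. On unscaled totals 1 CPM stood for 11.8 to 21.2 counts. Counting intervals are exact 95% intervals, and they and the floor of 3 counts cover counting error only. Replicate libraries differed beyond sampling noise (chi-square per degree of freedom 2.78 to 86.2 over genes), so each counts as 1 sample. Alternatives used limma 3.58.1, DESeq2 1.42.0, other filters, scalings and thresholds, a replicate block and each library left out. Genes without a symbol held 0.0285% of the counts.

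The naming rule took the 12 called genes with the largest interaction each way at a mean log2 CPM of at least 1 without Gm and Rik symbols, those of opposite sign and at least 2-fold in both formats, 13 key genes, and the 3 members of each list with the smallest adjusted p. The other called genes were named after their values were seen. The members and lists were chosen with earlier results of these data known. Induction contrasts share libraries with the format contrasts. Promoter sequences are from RefSeq, and 41 of the 52 lower genes matched an entry.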

Additional observations from a re-analysis of the deposited data

Results flagged for a closer look

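The 58 genes below are listed because a test of the difference itself, the interaction term of edgeR's quasi-likelihood model with Benjamini-Hochberg adjustment, separated their responses to induction in the 2 formats. Every value is the interaction on the log2 scale, from 2 libraries per group. No group had the 4 samples needed to look for single outlying samples, and every deposited column was used.

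Among the genes whose formats differed more before induction, lipid and sterol genes had these interactions: Plin1 -8.69, Ces1f -5.35, Olr1 -4.70, Abcg1 -3.63, Hsd11b1 -3.33, Dgat1 -1.90 and Angptl4 -1.27. The acute-phase and protease inhibitor genes, grouped after their values were seen, had Lcn2 -4.81, Hp -3.50, Serpina3m -3.11, Serpina3n -2.34, Saa3 -2.01 and Agt -1.75. Signalling, adhesion and other genes of that side had Mcam -6.70, Fam110c -2.77, Sh2b2 -2.39, Kcnk3 -2.19, Peg10 -2.19, Bcar3 -2.04, Chst1 -1.61, Parm1 -1.58, Slc37a2 -1.55, Gda -1.45, Hipk2 -1.23 and Nrip1 -1.07.

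Among the genes whose formats differed more after induction, those of lipid and carbon metabolism had Gpd1 -6.01, Acsl1 -3.96, Gpat3 -3.15, Lipe -3.10, Scd1 -2.17, Abhd15 -2.01, Pla2g16 -1.56, Hk2 -1.53, Pcx -1.27 and Scp2 -1.04. The transcription factor Cebpa had -2.46, and the receptor and membrane protein genes Adipor2, Vsir and Apmap had -1.04, -3.74 and -1.26. The rest of that side had Rasl12 -3.29, Syn2 -2.99, Fam241a -2.92, Cib2 -1.91, Pim3 -1.78, Egln3 -1.63, Angpt4 -1.62, Miga2 -1.40, Cdr2 -1.39 and C9orf72 -1.30. The antisense transcripts Gm16537, Chn1os3 and 4732471J01Rik had -5.71, -4.43 and -2.81. The genes with a higher response in spheroids had Ifi27l2a 2.30, Gm48529 2.23, Tagln 2.06, Nrg1 1.77, Eda2r 1.64 and Mmp13 1.53.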

How the results depend on the processing

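Each of 16 alternatives was applied to all comparisons, and the reported analysis of the interaction had 6 higher and 52 lower genes. With no filter on low counts it gave 45 and 164, and induction in spheroids gave 336 genes in place of 139. DESeq2 gave 24 and 137, and 240 for induction in spheroids. limma-voom with group weights gave 99 lower, and 1348 and 88 for induction in flat culture and in spheroids, against 689 and 139. A test against a 2-fold change (glmTreat of edgeR) gave 0 higher and 8 lower, with 215 and 20 for the 2 inductions and 294 and 336 for format before and after induction. At an unadjusted p under 0.05 the quasi-likelihood test of edgeR had 1199 genes. Size factors of the DESeq2 kind, a minimum count of 50 and a prior count of 2 left these counts within 1.5 times. The cause of these moves was not tested.

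Leaving out 1 library at a time, with the lone sample assumed to vary like the other groups, gave 0 to 374 higher and 1 to 418 lower interactions, 223 to 1141 calls for induction in flat culture, 24 to 1175 for induction in spheroids, and 561 to 2081 and 880 to 2875 for format before and after induction. Of the 58 called genes, all were called without either spheroid induced library. Without flat uninduced replicate 1 or 2, 2 were called, and without flat induced replicate 1 or 2, 1 and 6. Without spheroid uninduced replicate 1 or 2, 8 and 7 were called. Fn1 changed sign, from 0.17 to -1.05, without spheroid induced replicate 1, and was 0.82 without replicate 2.

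With the replicate number as a block, 2 higher and 37 lower interactions were called, 37 of them among the 58. Deviations of same-numbered samples correlated at -0.00619 to 0.206, above 0.1 in 1 of 6 pairs of groups. That pair was spheroid uninduced and spheroid induced, so whether the numbers pair the spheroid samples is not settled. The numbers are those of the sample titles, and the count columns of the flat uninduced samples are numbered differently. Depth limits genes with few uninduced reads, such as Plin1, Mcam, Adipoq and Slc2a4.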

Other observations

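Gene groups outside the fat cell program had interactions that were mostly not called. Among the p53 targets 9 of 11 were above 0, with a median of 0.63 (0.36 without spheroid induced replicate 2), and besides Eda2r, Trp53inp1, a stress-induced nuclear protein, had 1.13 ± 0.22 (log2 ± standard error, edgeR adjusted p = 0.108). Actin cytoskeleton genes were above 0 in 16 of 18, with a median of 0.30, and 1, Tagln, was called. Of 17 unfolded protein and amino acid stress genes 11 were above 0 and 6 below, with a median of 0.40. Here edgeR called 0 (5 higher and 3 lower at an unadjusted p under 0.05), and DESeq2 and limma-voom with group weights each called 1 lower. Among these genes, Sesn2 had 0.93 ± 0.19 and Xbp1, a factor of the unfolded protein response, -1.06 ± 0.25 (edgeR adjusted p = 0.147 and 0.235). Itga6, an integrin that binds laminin, had 14.0 and 14.5 CPM in flat uninduced, 73.0 and 76.2 CPM in flat induced, 48.1 and 28.0 CPM in spheroid uninduced and 41.3 and 24.1 CPM in spheroid induced libraries, and -2.61 ± 0.43 (adjusted p = 0.0686).

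Aldh1a1, which makes retinoic acid, had 9.41 and 8.52 CPM in flat uninduced, 48.3 and 52.7 CPM in flat induced, 0.147 and 0.364 CPM in spheroid uninduced and 3.86 and 3.63 CPM in spheroid induced libraries. It stood lower in spheroids in both states, and its interaction was 1.33 ± 0.40 (adjusted p = 0.388). Vegfa, a vascular growth factor, had 78.7 and 79.0 CPM, 133 and 135 CPM, 209 and 193 CPM and 181 and 199 CPM in the same order, with -0.84 ± 0.14 (adjusted p = 0.0758). Idh3a, a subunit of isocitrate dehydrogenase, had -1.28 ± 0.22 (adjusted p = 0.0775). Circadian clock genes were below 0 in 8 of 13, with a median of -0.07, and edgeR called 0 (0 at an unadjusted p under 0.05, 0 by DESeq2 and 0 by limma-voom with group weights).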
